A study of Mus musculus with 36 samples.

Results

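A set of 10 genes of glucose breakdown and of the response to low oxygen was followed through mouse keratinocytes with and without plakophilin 4 (PKP4), a protein of cell junctions. They are Slc2a1, Hk2, Pfkp, Aldoa, Pgk1, Ldha, Pkm, Vegfa, Car9 and Bnip3, chosen by name with earlier results of these data known. Each of them was found among the 55358 genes of the counts table. All 10 passed the filter on low counts, which left 15114 genes for testing, but Car9 did so only through 4 Rescue libraries.

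The cells were primary keratinocytes of newborn pups, either wildtype (WT, Pkp4+/+) or PKP4-knockout (PKP4-KO, Pkp4-/-, exon 9 deleted), both from mice backcrossed onto C57BL/6 J. Rescue cells were PKP4-KO keratinocytes that carried human PKP4 with an N-terminal EGFP tag from a lentivirus and were kept as a line selected with puromycin. Each kind of cell was kept in low calcium medium (LCM) or in the same medium with added calcium (HCM), in which keratinocytes form junctions and start to differentiate. RNA was taken after 24 h or 72 h, with 3 libraries for each of the 12 groups. In the sample titles the libraries of 72 h carry the letters HD and those of 24 h the letters LD. Any further difference that these letters may mark cannot be told apart from time. As the pups of the 2 genotypes were not the same, the genotype and the cell isolate cannot be told apart. Cells that carried EGFP alone were not analysed here. The libraries are called biological replicates by the authors, but the labels do not say whether they came from separate animals, and p-values measure the spread between these libraries.

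Glycolysis turns glucose into pyruvate, and lactate dehydrogenase then reduces pyruvate to lactate. Its genes belong to the best known targets of the hypoxia-inducible factors (HIFs), whose alpha subunits are marked for breakdown by oxygen-dependent prolyl hydroxylases and the von Hippel-Lindau protein while oxygen is present. When oxygen falls, the stabilized alpha subunit pairs with ARNT and binds short elements with the core ACGTG or GCGTG, and glucose uptake, lactate production, vessel growth and mitochondrial clearance genes are switched on. The epidermis has no vessels of its own, and its cells are known for a high rate of lactate production.

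To show where such cores lie, the 250 bases before the canonical start of each gene were read from GRCm39, and the exon-free part is printed 5′ to 3′ on the strand of the gene for 4 of them. Bnip3 is shown for its 5 cores, Ldha for its palindrome CACGTG, Pfkp for the largest mean difference among the enzymes and Pgk1 as an enzyme that was near WT in most Rescue groups. Capitals mark ACGTG or GCGTG, or their complements CACGT and CACGC where the core lies on the other strand.
Bnip3, chr7:138511254-138511412, minus strand: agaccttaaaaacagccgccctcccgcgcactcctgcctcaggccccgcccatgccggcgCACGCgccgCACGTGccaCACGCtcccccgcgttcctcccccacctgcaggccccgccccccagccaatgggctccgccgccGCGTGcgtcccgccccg
Ldha, chr7:46495013-46495131, plus strand: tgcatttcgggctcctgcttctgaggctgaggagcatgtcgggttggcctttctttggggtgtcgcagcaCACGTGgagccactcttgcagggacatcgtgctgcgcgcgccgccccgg
Pgk1, chrX:105230456-105230705, plus strand: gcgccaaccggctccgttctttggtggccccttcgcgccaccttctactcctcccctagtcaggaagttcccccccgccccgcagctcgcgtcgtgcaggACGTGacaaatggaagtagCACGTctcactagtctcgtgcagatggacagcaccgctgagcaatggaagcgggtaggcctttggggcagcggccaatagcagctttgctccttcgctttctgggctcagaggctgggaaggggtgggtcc
Pfkp, chr13:6698971-6699220, minus strand: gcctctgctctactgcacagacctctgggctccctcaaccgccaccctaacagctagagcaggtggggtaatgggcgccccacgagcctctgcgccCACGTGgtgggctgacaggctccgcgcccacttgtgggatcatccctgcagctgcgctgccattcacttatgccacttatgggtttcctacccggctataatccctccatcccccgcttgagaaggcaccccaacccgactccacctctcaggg

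Counted on both strands over the full 250 bases, Ldha held 6 cores, of which 2 lie in the printed stretch, and Bnip3 held 5, Hk2, Pfkp and Pgk1 held 2 each, and Slc2a1 and Aldoa held 1 each. None was found in these windows of Pkm, Vegfa and Car9, which says only that the letters are not there. The windows of Aldoa, Pkm and Car9 lie within exons of other transcripts, and those of Ldha, Bnip3 and Hk2 do so in part. Of the 21614 promoters of protein-coding genes read in the same way, 41.4% held at least 1 core, 18.2% at least 2 and 1.05% at least 5. The palindrome CACGTG, which counts as a core on each strand, was present in the printed stretches of Bnip3, Ldha and Pfkp and in 6.29% of all promoters. A match is a description of the letters and not a site that was shown to be bound.

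Between 13602728 and 22467187 reads were counted per library. Endogenous Pkp4 stood at 33.4 to 76.3 CPM in WT libraries (counts scaled to library size with TMM factors, as all levels below). It stood at 6.4 to 14.1 CPM in PKP4-KO and 6.52 to 11.9 in Rescue libraries. The transgene had 1902 to 15325 counts in Rescue and at most 113 in the other libraries. The libraries held keratinocytes by their markers, with summed basal markers at 35800 to 62900 CPM in WT, 41500 to 72100 in PKP4-KO and 26000 to 42600 in Rescue. Fibroblast markers summed to at most 11.4 CPM, melanocyte markers to at most 2.09, immune markers to at most 1.45 and endothelial markers to at most 5.46. Tyr and Cd207 were at 0 in every library. Summed suprabasal markers reached 649 to 11200 CPM in WT libraries, 626 to 24900 in those of PKP4-KO and 784 to 5120 in Rescue, and their part in the results was not tested. Single markers moved both ways. Mean CPM was higher in PKP4-KO than in WT for Krt1 (1080 against 13.6), Krt10 (1350 against 157), Krtdap (4400 against 1680) and Sbsn (899 against 832). It was lower for Ivl (12.8 against 64.8) and Lor (14.3 against 68.4). Of the basal markers, Krt5, Krt14 and Trp63 had higher means, and Itga6 (75.1 against 184), Dsg3 (109 against 348), Itgb4 and Perp lower ones. The 3 PKP4-KO libraries at 72 h HCM stood apart, with TMM factors of 0.481 to 0.546 against 0.705 to 1.39 in all others. Without TMM factors the median log2 fold change of all genes between PKP4-KO and WT in that condition moved from -0.07 to -0.83. Where leaving out the factors changed a call or a direction for this group, the value or the count without them is given. Other differences with this group are given with TMM factors only, and their sizes depend on the scaling. In bulk RNA, fewer cells that express a gene and less RNA per cell cannot be told apart.

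Per length of the gene as deposited, the enzymes of the later steps of glycolysis were the most abundant of the genes. In WT cells at 24 h LCM, Pgk1 reached 417 RPKM (CPM per kilobase of exons), Ldha 372, Pkm 324 and Aldoa 236, whereas the glucose transporter Slc2a1 stood at 22 RPKM, the hexokinase Hk2 at 6.49, the phosphofructokinase Pfkp at 3.61, Bnip3 at 2.22, Vegfa at 1.68 and Car9 at 0.033. In PKP4-KO cells at 72 h LCM, where 7 of the genes had their highest group mean, Ldha headed the order with 1670 RPKM, and Bnip3 with 115 RPKM had moved past Slc2a1 with 80.5 and Pfkp with 28.9. In CPM, Bnip3 at 260 stayed below Slc2a1 at 282 and Pfkp at 387 in this group. The RPKM order rests on the deposited gene lengths, which were 13401 bases for Pfkp and 2265 for Bnip3. Over the 12 group means, Bnip3 spanned a 68-fold range, Vegfa 13.3-fold, Pfkp 12.8-fold and Hk2 11.2-fold, while Slc2a1, Aldoa, Pgk1, Ldha and Pkm spanned between 3.75-fold and 4.48-fold. Neighbouring groups in the order of levels mostly overlapped in their libraries, from 4 of the 11 neighbouring pairs for Pfkp to 10 of 11 for Vegfa and all 11 for Car9.

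**Figure D1:**
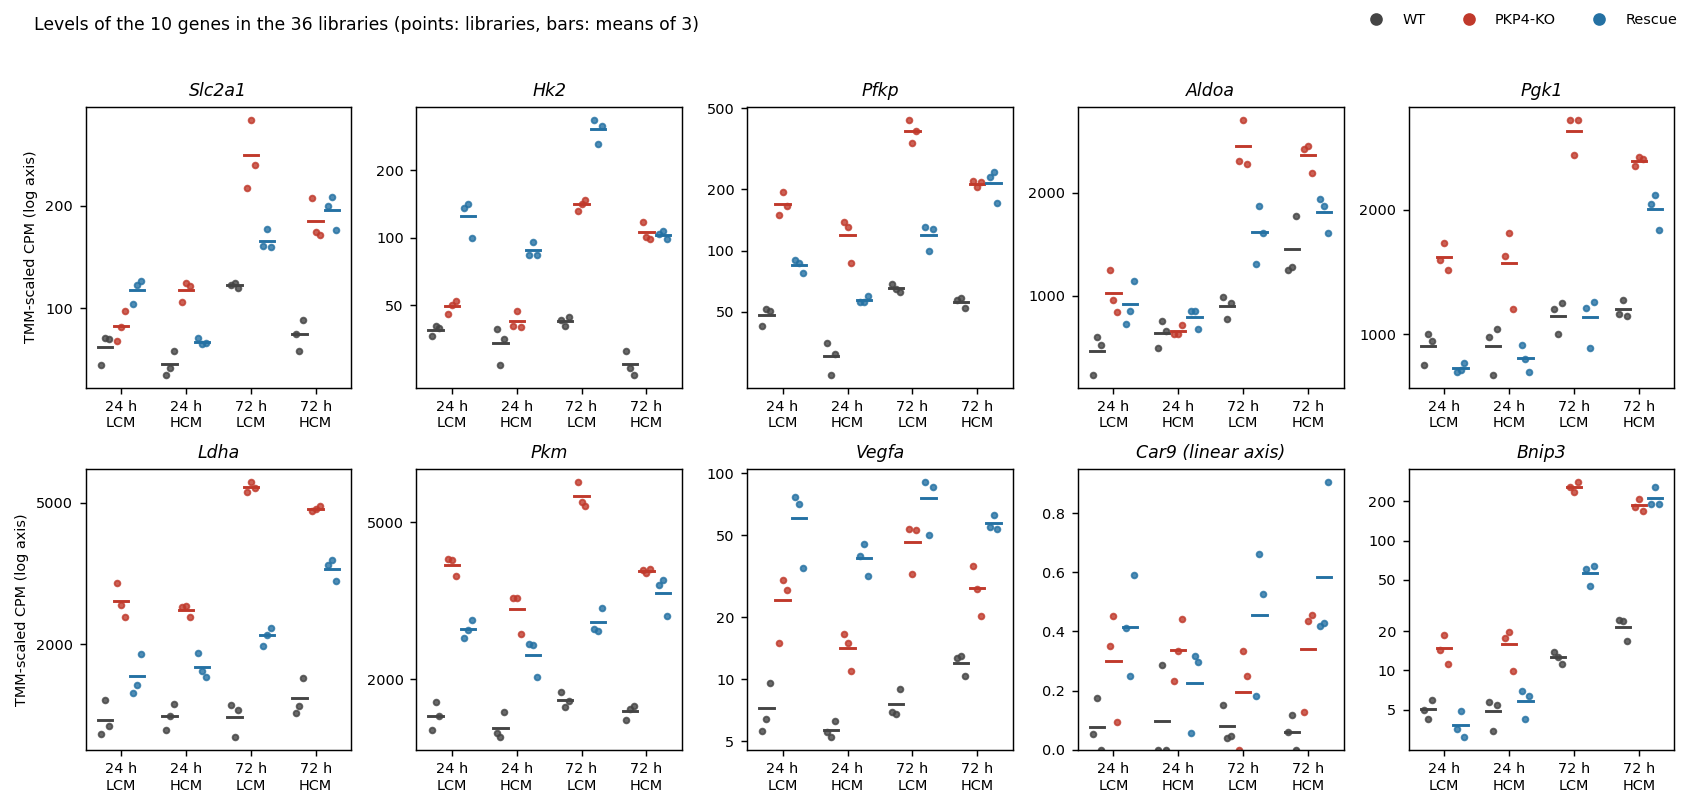
Levels of the 10 genes in each of the 36 libraries, as TMM-scaled CPM on a log axis (linear for Car9), by time and medium, with points for libraries and bars for the means of 3. The red points of PKP4-KO lie above the grey points of WT for most genes at 72 h, Hk2 and Vegfa are highest in Rescue at 72 h LCM, and Bnip3 is low in all cells at 24 h.

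PKP4-KO cells had more RNA of nearly the whole group than WT cells in all 4 culture conditions. At 72 h, 9 of the 10 genes were higher in LCM and 9 in HCM in the quasi-likelihood test of edgeR, adjusted after Benjamini and Hochberg over all 15114 genes. At 24 h 8 were higher in each medium, and without TMM factors the counts were 9 in LCM and 6 in HCM at 72 h, and 6 in LCM and 7 in HCM at 24 h. With any 1 library left out, the counts at 24 h were 6 to 7 in LCM and 7 to 8 in HCM. None was lower in any condition. PKP4-KO and WT cells differed widely over all genes too, with calls for 45.1% of genes after 72 h in LCM (21.3% higher) and 51.8% in HCM (21.9% higher). After 24 h the shares were 40.2% in LCM (19.7% higher) and 42.8% in HCM (20.7% higher). The median log2 fold change of the 10 genes was 1.18 in LCM and 0.99 in HCM at 24 h, and 1.72 in LCM and 1.48 in HCM at 72 h, and that of all genes lay between -0.07 and 0.02. As the mean of the 4 conditions, all 10 genes were higher in PKP4-KO, against 70% of all genes called and 33.4% higher, and all 10 were also higher over the 3 conditions other than 72 h HCM. Both counts include Car9, which passed the filter only through Rescue libraries and passed the test in no single condition. The 10 genes took 0.4% to 0.61% of all counts in WT and 0.704% to 1.66% in PKP4-KO libraries.

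Slc2a1 encodes GLUT1, the main glucose transporter of keratinocytes, and lies on chromosome 4 from 118965908 to 118996365. At 72 h LCM it stood at 117, 119 and 115 CPM in WT and at 225, 359 and 263 CPM in PKP4-KO, so that the groups did not overlap, and the log2 fold change was 1.27 ± 0.14 (SE, adjusted p = 1.93e-08). In HCM it was also higher in the knockout cells, by 1.11 ± 0.14 at 72 h and 0.73 ± 0.14 at 24 h, whereas the difference of 0.20 at 24 h LCM did not pass the test.

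Hk2, the inducible hexokinase that traps glucose in the cell as glucose 6-phosphate, differed little at 24 h and clearly at 72 h. At 24 h it stood at 36.5, 40.3 and 39.5 CPM in WT and 45.8, 50.2 and 52.1 CPM in PKP4-KO in LCM. The log2 fold changes of 0.35 (adjusted p = 0.0381) in LCM and 0.33 (0.0458) in HCM were each lost without any 1 of 5 of the 6 libraries compared, with ranges of 0.31 to 0.40 and 0.19 to 0.45. The exceptions were PKP4-KO replicate 1 in LCM and WT replicate 1 in HCM. Without TMM factors the values were 0.12 (adjusted p = 0.699) and 0.38 (0.189), and both calls were also lost with no filter on low counts. At 72 h the level in PKP4-KO was 132, 142 and 148 CPM in LCM and 117, 101 and 98.8 in HCM, against 43, 40.4 and 44.1 CPM and 31.3, 26.2 and 24.4 CPM in WT. These groups stood well apart, with log2 fold changes of 1.73 ± 0.14 (adjusted p = 3.43e-11) and 1.95 ± 0.14 (adjusted p = 4.04e-12).

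Pfkp, the platelet type subunit of phosphofructokinase at the committed step of glycolysis, had the largest difference among the enzymes in the mean of the 4 conditions (2.07 ± 0.08). It stood at 42.8, 51.6 and 50.7 CPM in WT and at 149, 193 and 165 CPM in PKP4-KO at 24 h LCM, and at 68.3, 65 and 62.3 against 439, 337 and 387 CPM at 72 h LCM. In every condition the PKP4-KO libraries lay above those of WT, with log2 fold changes of 1.81 and 1.97 at 24 h LCM and HCM and of 2.57 and 1.93 at 72 h LCM and HCM (SE 0.16 to 0.17). The largest adjusted p among these 4 was 4.49e-10.

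Aldoa, the aldolase that splits fructose 1,6-bisphosphate, differed with the condition. It was higher in PKP4-KO at 24 h LCM (log2 fold change 0.57 ± 0.17, lost without WT replicate 1 or PKP4-KO replicate 1), at 72 h LCM (1.55 ± 0.17) and at 72 h HCM (0.90 ± 0.17, and 0.17 with adjusted p = 0.131 without TMM factors). At 24 h HCM, WT libraries with 705, 843 and 787 CPM and PKP4-KO libraries with 770, 771 and 823 CPM overlapped, and the difference of 0.02 had a 95% interval from -0.32 to 0.36.

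Pgk1, phosphoglycerate kinase, which catalyses the first step that yields ATP, lies on chromosome X from 105230706 to 105247305. It stood at 1150, 1000 and 1190 CPM in WT and at 3310, 2710 and 3300 CPM in PKP4-KO at 72 h LCM, which do not overlap, a log2 fold change of 1.48 ± 0.14 (adjusted p = 1.84e-09). The differences were smaller after 24 h in LCM (0.71) and HCM (0.67) and after 72 h in HCM (1.20), and without TMM factors the calls at 24 h LCM (0.48, adjusted p = 0.0686) and 72 h HCM (0.42, adjusted p = 0.0756) were lost.

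Ldha, the lactate dehydrogenase subunit that favours lactate formation, followed the same order of conditions at higher levels. WT libraries held 1350, 1100 and 1310 CPM at 72 h LCM and 1280, 1340 and 1610 CPM at 72 h HCM, whereas PKP4-KO libraries held 5350, 5720 and 5480 CPM and 4730, 4790 and 4890 CPM. The log2 fold changes of 2.14 ± 0.13 (adjusted p = 1.72e-13) and 1.77 ± 0.13 (adjusted p = 7.75e-12) were about as precise as those at 24 h, which were 1.10 ± 0.13 in LCM and 0.99 ± 0.13 in HCM.

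Pkm encodes the pyruvate kinase of muscle and dividing cells, which makes pyruvate and ATP in the last step. Its log2 fold changes in PKP4-KO against WT were 1.27 in LCM and 0.99 in HCM at 24 h, and 1.72 in LCM and 1.18 in HCM at 72 h, each with an SE of 0.12. At 72 h LCM it stood at 1860, 1700 and 1760 CPM in WT and 6330, 5630 and 5500 CPM in PKP4-KO. The counts do not separate its splice forms.

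Among the hypoxia targets that are not enzymes of glycolysis, Bnip3 showed the largest differences of all 10 genes at 72 h and in the mean of the 4 conditions (2.68 ± 0.13). Bnip3 is a mitochondrial protein that recruits the autophagy machinery to mitochondria, and its gene lies on the minus strand of chromosome 7 from 138490690 to 138511253, next to the stretch printed above. It stood at 4.92, 4.2 and 5.94 CPM in WT and 14.5, 18.6 and 11.2 CPM in PKP4-KO at 24 h LCM, and at 14, 12.6 and 11.3 CPM against 260, 236 and 284 CPM at 72 h LCM. In HCM the values were 5.67, 3.45 and 5.45 against 17.8, 19.9 and 9.9 CPM at 24 h, and 24.4, 24.1 and 17 against 182, 210 and 169 CPM at 72 h. The groups were separate in all 4 conditions, with log2 fold changes of 1.55 ± 0.25 and 1.70 ± 0.25 at 24 h and of 4.36 ± 0.27 in LCM (20.6-fold, adjusted p = 1.58e-13) and 3.09 ± 0.25 in HCM (8.54-fold, adjusted p = 6.15e-11) at 72 h.

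Vegfa, the growth factor for blood vessels that keratinocytes secrete, was low in WT, with 5.24 to 12.9 CPM over its 12 libraries. In PKP4-KO it stood at 14.9, 30.4 and 27.1 CPM at 24 h LCM and at 16.5, 14.9 and 11 at 24 h HCM. After 72 h the values were 53.8, 32.2 and 53 in LCM and 35.2, 27.5 and 20.2 in HCM. PKP4-KO was above WT in each condition, by a log2 fold change between 1.20 ± 0.29 at 72 h HCM and 2.62 ± 0.30 at 72 h LCM. Without TMM factors the call at 72 h HCM was lost (0.41, adjusted p = 0.331). Its libraries spread more than those of the enzymes, with a median SD within groups of 0.35 on the log2 scale against 0.11 to 0.18.

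Car9, a carbonic anhydrase of the cell surface that is used as a marker of hypoxia, was close to the detection limit everywhere. WT libraries held 0 to 4 counts, PKP4-KO libraries 0 to 9 and Rescue libraries 1 to 19, so that most values lie within counting error of a few reads. No single condition passed the test in PKP4-KO against WT, with log2 fold changes of 1.25 to 2.24 and 95% intervals that all included 0, and the mean of the 4 conditions was 1.83 ± 0.54 (adjusted p = 0.004).

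**Figure D2:**
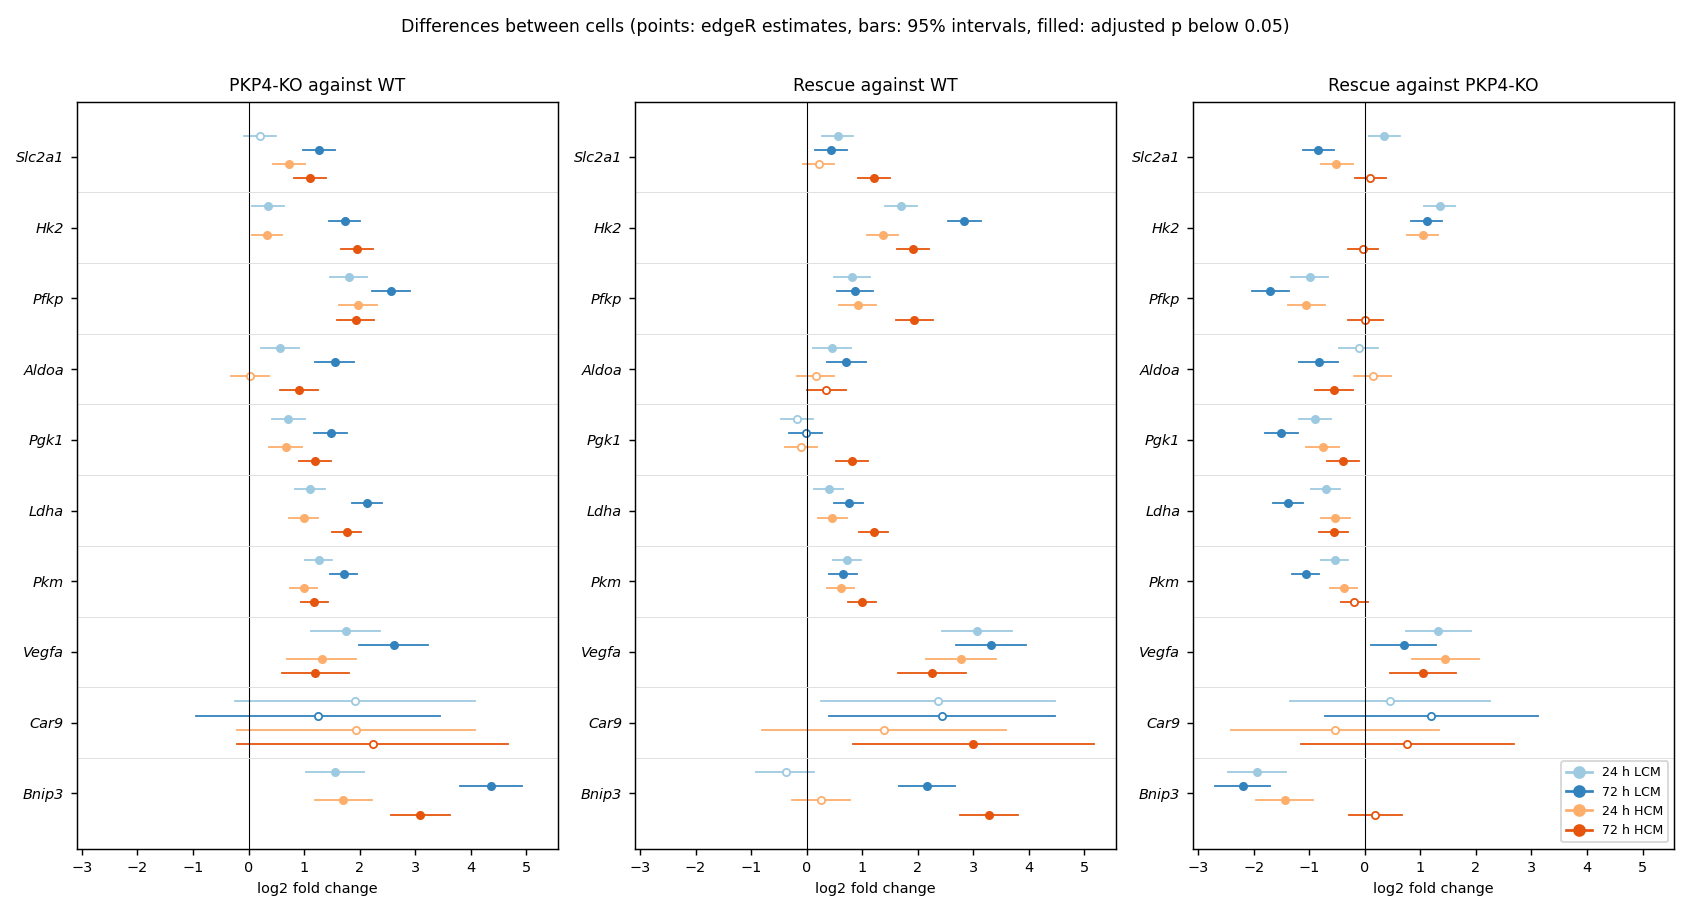
Log2 fold changes of the 10 genes for the 3 pairs of genotypes (1 per panel), by time and medium, with 95% intervals as bars and filled points for an adjusted p below 0.05. In PKP4-KO against WT the estimates lie at or right of 0, with Bnip3 at 4.36 at 72 h LCM, whereas in Rescue against PKP4-KO only Hk2 and Vegfa lie clearly right of 0 in several conditions.

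Rescue cells were included to show which differences were reduced in PKP4-KO cells that received PKP4. Against the same WT libraries that served as the reference for PKP4-KO, 7 of the 10 genes were higher at 24 h LCM (24.8% of all genes called, 13.5% higher), 8 at 72 h LCM (32.4% and 17.9%), 5 at 24 h HCM (23.2% and 11.8%) and 9 at 72 h HCM (36.2% and 19.5%). The last count is 8 without Car9. None was lower. The median log2 fold changes of the 10 genes were 0.64, 0.82, 0.54 and 1.57 in this order. Against PKP4-KO, Rescue cells had 3 genes higher and 5 lower at 24 h LCM (33.7% of all genes called), 2 higher and 7 lower at 72 h LCM (41.5%), and 2 higher and 6 lower at 24 h HCM (40.8%). At 72 h HCM 1 was higher and 3 were lower while 66.7% of all genes were called. Without TMM factors 9 of the 10 genes were called higher in Rescue in that condition, where the median of all genes moved from 0.20 to 1.37.

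The enzymes of the later steps were mostly lower in Rescue than in PKP4-KO cells. Pgk1 stood at 811, 821 and 853 CPM in Rescue at 24 h LCM and at 1160, 926 and 1200 CPM at 72 h LCM, which overlapped with the WT values at 72 h. Its log2 fold changes against WT of -0.18, -0.02 and -0.10 in 24 h LCM, 72 h LCM and 24 h HCM did not pass the test, with intervals inside -0.47 to 0.27. Only at 72 h HCM, with 2070, 2170 and 1790 CPM, was it higher than in WT (0.81 ± 0.14, adjusted p = 5.93e-05). Ldha was 1.38 lower on the log2 scale in Rescue than in PKP4-KO at 72 h LCM (adjusted p = 9.44e-10), but still 0.76 ± 0.13 higher than in WT. Pkm was between the other cells as well, 1.06 lower than in PKP4-KO and 0.65 higher than in WT at 72 h LCM. In the mean of the 4 conditions, Pfkp, Pgk1, Ldha and Pkm were lower in Rescue than in PKP4-KO by 0.93, 0.89, 0.79 and 0.54, with 71% of all genes called. Slc2a1 and Aldoa were lower by 0.22 and 0.34, but turned to 0.20 and 0.08 without TMM factors, where the call of Pkm was lost as well (-0.12, adjusted p = 0.15).

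Hk2 and Vegfa went the other way. In Rescue, Hk2 stood at 135, 141 and 100 CPM at 24 h LCM, 83.5, 95.2 and 83.9 CPM in HCM, and 337, 263 and 314 CPM after 72 h in LCM, all above the PKP4-KO libraries, with log2 fold changes against PKP4-KO of 1.35 ± 0.14, 1.04 ± 0.13 and 1.12 ± 0.13. At 72 h HCM, 104, 107 and 99.1 CPM in Rescue and 117, 101 and 98.8 in PKP4-KO overlapped, and the difference of -0.03 (95% interval -0.31 to 0.24) became 1.14 without TMM factors. Vegfa stood at 76.3, 70.5 and 34.7 CPM at 24 h LCM and at 39.7, 45.3 and 31.5 at 24 h HCM. After 72 h it reached 90.8, 50.1 and 85.2 CPM in LCM and 54.9, 62.3 and 53.7 in HCM. The gene was higher in Rescue than in PKP4-KO in all 4 conditions, by 1.32, 1.45, 0.70 and 1.05. The call of 0.70 at 72 h LCM was lost (lowest value 0.50, highest adjusted p = 0.219) when PKP4-KO replicate 2 or 3 or Rescue replicate 1 or 3 was left out. It was also lost with the replicate number as a block (adjusted p = 0.055), and the same-number libraries of these 2 groups deviated together, with correlations of 0.33, 0.77 and 0.51. Against WT, Vegfa differed by 2.25 to 3.32 and Hk2 by 1.37 to 2.84.

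Bnip3 in Rescue depended on the time in culture. At 24 h it stood at 3.55, 4.84 and 3.08 CPM in LCM and at 6.99, 4.23 and 6.36 CPM in HCM, overlapping with WT, and the log2 fold changes against WT of -0.38 ± 0.25 and 0.26 ± 0.25 did not pass the test. At 72 h LCM it stood at 60.2, 45 and 64 CPM, between WT and PKP4-KO, 2.16 ± 0.24 above WT and 2.20 below PKP4-KO on the log2 scale. At 72 h HCM the 192, 257 and 190 CPM overlapped with the PKP4-KO libraries (0.19, 95% interval -0.29 to 0.67), and without TMM factors the log2 fold change was 1.37.

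Pfkp and Slc2a1 in Rescue were below PKP4-KO at 72 h LCM and overlapped with it at 72 h HCM. Pfkp stood at 130, 100 and 128 CPM in Rescue at 72 h LCM, 1.70 below PKP4-KO on the log2 scale, and at 230, 243 and 172 CPM at 72 h HCM, 0.01 above it, a difference with a 95% interval from -0.31 to 0.33. Slc2a1 was 0.84 lower in Rescue than in PKP4-KO at 72 h LCM, and at 72 h HCM the difference was 0.10, with 200, 213 and 170 CPM against 211, 168 and 164 CPM. Without TMM factors Rescue was higher than PKP4-KO at 72 h HCM for both, by 1.19 for Pfkp (adjusted p = 7.38e-05) and 1.28 for Slc2a1 (4.38e-08). At 24 h LCM Slc2a1 was called higher in Rescue than in PKP4-KO (0.35), with 103, 117 and 120 CPM against 79.8, 87.9 and 98 CPM. That call was lost without PKP4-KO replicate 1 or 2 or Rescue replicate 2 or 3. It was also lost with no filter on low counts and with only the groups compared in the fit. Aldoa did not pass the test against WT at 24 h HCM (0.16) and 72 h HCM (0.35), and was higher at 72 h LCM (0.71 ± 0.17) and, with adjusted p = 0.0449, at 24 h LCM (0.45). The last call was lost without Rescue replicate 2 or 3 or WT replicate 1 or 3. In HCM both differences passed without TMM factors, with 0.29 at 24 h (adjusted p = 0.0323) and 0.80 at 72 h (2.82e-07), and that at 72 h also without WT replicate 3 (0.54). Car9 at 72 h HCM had 9, 11 and 19 counts in Rescue against 1, 2 and 0 in WT. As it passed the filter only through Rescue libraries, its call in this comparison is given no weight, and with no filter on low counts it was lost (adjusted p = 0.0535).

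The longer culture was compared with the shorter one to see whether the genes changed with time and whether they did so alike in the 3 kinds of cells. From 24 h to 72 h, 9 of the 10 genes rose in PKP4-KO in LCM (26.1% of all genes called, 12.4% higher) and 9 in HCM (55.8% and 24.3%). In WT 2 rose in LCM (9.96% and 5.29%) and 4 in HCM (17.8% and 9.16%), and in Rescue 5 rose in LCM (9.81% and 6.84%) and 7 in HCM (24.3% and 13.6%), where the 5 became 3 without Rescue 24 h LCM replicate 1 or 2. None fell. Without TMM factors 7 rose in PKP4-KO in LCM, where Pkm (0.21) and Vegfa (0.56) lost their calls. In HCM 2 rose and 2 fell, and Slc2a1, Pfkp, Pgk1, Ldha, Pkm and Vegfa turned to -0.39, -0.24, -0.26, -0.13, -0.75 and -0.13 there, where the median of all genes turned to -1.16. Bnip3 was the gene that rose in all 6 time comparisons, by 1.33 ± 0.25 in LCM and 2.16 ± 0.25 in HCM for WT, 4.14 ± 0.26 and 3.55 ± 0.26 for PKP4-KO, and 3.87 ± 0.27 and 5.18 ± 0.28 for Rescue. Hk2 rose by 1.51 in LCM and 1.31 in HCM in PKP4-KO and by 1.28 in Rescue in LCM, whereas the values of 0.13 and -0.31 in WT did not pass the test. The rise in PKP4-KO in HCM was lost without TMM factors (0.24, adjusted p = 0.342).

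Tests of the difference between these changes asked whether the PKP4-KO effect grew with time. In LCM the excess of PKP4-KO over WT was larger at 72 h than at 24 h for 7 of the 10 genes, against 5.25% of all genes called in either direction and 3.43% called larger. The growth was 2.81 ± 0.35 for Bnip3 (adjusted p = 2.79e-06), 1.38 ± 0.19 for Hk2 (1.67e-05), 1.07 ± 0.19 for Slc2a1, 1.04 ± 0.18 for Ldha, 0.98 ± 0.24 for Aldoa, 0.77 ± 0.20 for Pgk1 and 0.76 ± 0.22 for Pfkp, all relative to WT. The call of Pfkp was lost without replicate 1 or 3 of PKP4-KO or replicate 2 or 3 of WT at either time, and that of Pgk1 without PKP4-KO replicate 3 at either time or replicate 1 at 72 h, or WT replicate 2 at either time. In HCM it was larger for 5 genes (26.6% of all genes called, 10.8% larger), namely Hk2 (1.62), Bnip3 (1.39), Aldoa (0.89), Ldha (0.78) and Pgk1 (0.53). Without TMM factors only Hk2 (0.79, adjusted p = 0.0393) of the 10 genes was called larger and 2 were called smaller, while Bnip3 (0.52), Aldoa (0.08), Ldha (-0.04) and Pgk1 (-0.31) did not pass. The call of Pgk1 was lost without any 1 of 10 of the 12 libraries, all but replicate 2 of either genotype at 24 h. For Rescue against WT the growth passed the test for Hk2 (1.15) and Bnip3 (2.54) in LCM (3.91% of all genes called) and for Bnip3 (3.02), Pfkp (1.02), Slc2a1 (0.99), Pgk1 (0.91) and Ldha (0.75) in HCM (10.5%).

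**Figure D3:**
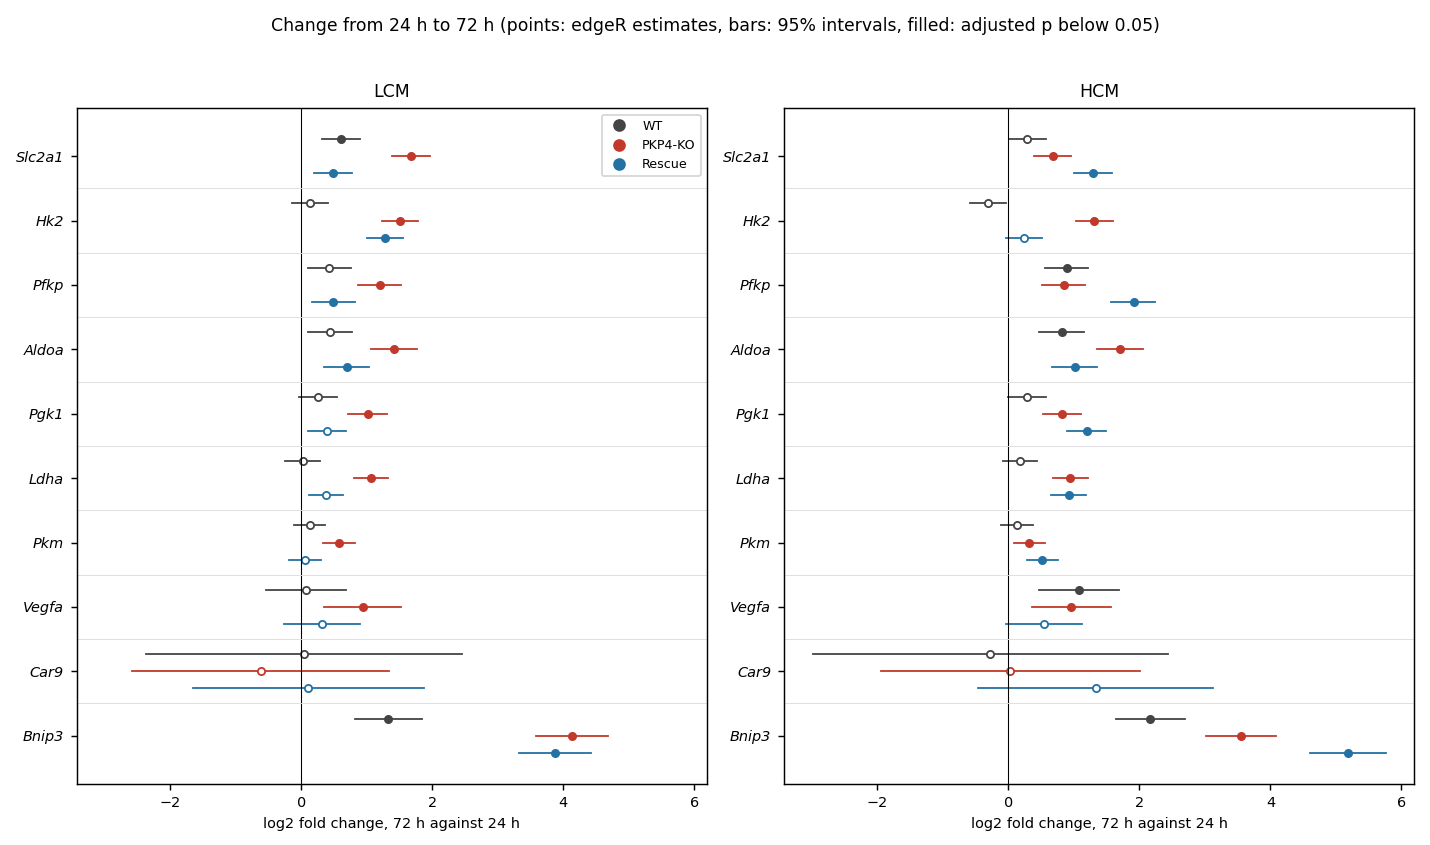
Log2 fold changes of the 10 genes from 24 h to 72 h in LCM and HCM, with 95% intervals as bars and filled points for an adjusted p below 0.05. Bnip3 lies furthest right in every kind of cell, up to 5.18 in Rescue in HCM, and in LCM the PKP4-KO points of most genes lie right of those of WT.

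Calcium changed between 0 and 5 of the genes, depending on the cells and the time. At 24 h, HCM against LCM gave 0 higher and 1 lower gene in WT (Pfkp, -0.67 ± 0.16, 14.2% of all genes called), none in PKP4-KO by edgeR (2.83% called) and 3 lower in Rescue (12%), which were Slc2a1 (-0.51), Hk2 (-0.52) and Pfkp (-0.57). None of those 3 was called without Rescue LCM replicate 2, and 1 was without replicate 1. In PKP4-KO at 24 h, 5 of the 10 genes had an unadjusted p below 0.05, with the smallest p values adjusted by edgeR for Pfkp (-0.51, 0.0805) and Pkm (-0.37, 0.0866), and DESeq2 called 2. At 72 h, 5 genes were lower in HCM in PKP4-KO (32.6% called, 19.7% lower), namely Pfkp (-0.86), Vegfa (-0.75), Slc2a1 (-0.64), Pkm (-0.63) and Hk2 (-0.41), or 9 without TMM factors. Hk2 and Vegfa lost their calls without PKP4-KO HCM replicate 2 or 3 or LCM replicate 3, and Vegfa also without LCM replicate 1. In WT at 72 h, Hk2 (-0.64) and Slc2a1 (-0.48) were lower and Bnip3 (0.80) and Aldoa (0.56) higher in HCM (21.4% called). Without replicate 2 of either medium 2 calls were left, and without TMM factors the 2 higher calls were lost.

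Rescue cells at 72 h gave the largest changes with calcium. Bnip3 rose by 1.92 ± 0.24 (adjusted p = 7.58e-07), Pgk1 by 0.88 ± 0.14, Pfkp by 0.85 ± 0.16 and Ldha by 0.63 ± 0.13 in HCM, while Hk2 fell by 1.56 (adjusted p = 1.52e-09), with 24.9% of all genes called. Hk2 stood at 337, 263 and 314 CPM in LCM and at 104, 107 and 99.1 CPM in HCM there, and Bnip3 at 60.2, 45 and 64 against 192, 257 and 190 CPM, so that neither overlapped. In the test of the difference between Rescue and WT at 72 h, the change with calcium differed for Pfkp (1.06), Bnip3 (1.12), Pgk1 (0.83), Slc2a1 (0.78) and Hk2 (-0.93), against 14.6% of all genes called. At 24 h no gene passed by edgeR (0.0662% called, 0 with an unadjusted p below 0.05, 0 calls by DESeq2). The call of Bnip3 at 72 h was lost without replicate 2 of Rescue in either medium or WT HCM replicate 3. The same test for PKP4-KO passed for Vegfa (-1.41 ± 0.41, adjusted p = 0.0358) and Bnip3 (-1.27 ± 0.33, adjusted p = 0.0183) at 72 h (5.74% called), while no gene passed at 24 h by edgeR (4.02% called, 2 genes with an unadjusted p below 0.05, and 0 calls by DESeq2). The call of Bnip3 was lost without PKP4-KO HCM replicate 3, WT HCM replicate 1 or 2 or WT LCM replicate 3, and that of Vegfa without any 1 of 8 of the 12 libraries, namely PKP4-KO HCM replicate 2 or 3, PKP4-KO LCM replicate 1 or 3 and replicate 1 or 2 of WT in either medium.

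Other genes of the pathways were read from lists chosen by name, also with earlier results of these data known. Of 20 further enzymes and transporters of glycolysis, 13 passed the filter on low counts, and 11 of these were higher and none lower in PKP4-KO than in WT as the mean of 4 conditions (median log2 fold change 1.05, and -0.02 for all genes, of which 70% were called as above). Eno1, enolase, was higher by 1.41 ± 0.06, Tpi1, triose phosphate isomerase, by 1.40 ± 0.08, and Ldhb, the other main subunit of lactate dehydrogenase, by 2.12 ± 0.18 from 0.718 to 7.4 CPM in WT. Gapdh was higher by 1.94 ± 0.50, but its libraries spread widely within groups, for example at 606, 49 and 117 CPM in PKP4-KO at 24 h LCM. The 2 genes not called, named after their values were seen, were Pfkm with 0.02 and Eno2, which was at or near 0 in most libraries, so that its estimate carries no information. Slc16a3, the lactate exporter induced by hypoxia, was not tested, with at most 16 counts in a library. In Rescue against WT, where 49.2% of all genes were called in the mean of 4 conditions and 26.1% were higher, 11 of the 13 were higher and none lower, with a median of 0.56. The calls there did not include Gapdh (0.41 ± 0.48).

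Of 24 further genes known to be induced by hypoxia, 23 were tested, and 16 were higher and 4 lower in PKP4-KO (median 1.26), and 18 higher and 2 lower in Rescue (median 0.63), both against WT. Over all genes 70% were called and 33.4% higher in PKP4-KO, and 49.2% and 26.1% in Rescue. Stc2, a secreted glycoprotein of calcium and phosphate balance, had 0.618 to 1.87 CPM in WT, 6.61 to 42.4 in PKP4-KO and 15.7 to 49.2 in Rescue libraries, with log2 fold changes of 4.53 ± 0.16 and 5.02 ± 0.16. Ak4, a mitochondrial adenylate kinase, was higher by 2.62 ± 0.11 and 1.57 ± 0.11. Adm, which encodes the vessel-relaxing peptide adrenomedullin, was at most at 0.431 CPM in WT and was higher by 3.05 ± 0.34 and 4.06 ± 0.31. The WT libraries alone would not have passed the filter on low counts. Adm was thus tested through cells where it was higher, and its differences are given no weight, though the counts above include it. Ankrd37, like Bnip3, was low at 24 h in PKP4-KO and high at 72 h, 1.64 to 5.69 and 54.9 to 213 CPM. In Rescue at 72 h HCM it stood at 15.9, 15.4 and 18.8 CPM against 7.03, 7.52 and 13.8 CPM in WT. Pdk1, a mitochondrial kinase that inhibits pyruvate dehydrogenase and a classical HIF target, differed by -0.11 ± 0.09 (adjusted p = 0.293) in PKP4-KO and by -0.01 in Rescue. The 4 lower genes in PKP4-KO, named after their values were seen, were Ccng2 (-1.53), Plod1 (-0.82), Mxi1 (-0.63) and Pfkfb3 (-0.24).

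Among 11 HIF subunits and oxygen sensors, 4 were higher and 5 lower in PKP4-KO than in WT (median -0.26), shares near those of 33.4% higher and 70% called over all genes. The prolyl hydroxylases Egln3 and Egln1, the first of them itself a HIF target, were higher by 1.39 ± 0.10 and 1.04 ± 0.07, Epas1, which encodes HIF-2 alpha, by 0.73 ± 0.12, and Vhl by 0.40 ± 0.08. Hif1a with -0.26 ± 0.24 (adjusted p = 0.335) and Arnt with -0.11 ± 0.07 (adjusted p = 0.16) did not pass the test. Cited2, an inhibitor of HIF transcription, was 1.77 lower and Arnt2 1.79 lower on the log2 scale. Hif3a, an alpha subunit with inhibitory forms, was called lower in PKP4-KO, where no library had more than 2 counts, against 2 to 14 counts in WT and 9 to 28 in Rescue. The other lower genes, Egln2 (-0.51) and Hif1an (-0.34), both oxygen sensors, are named after their values were seen. In Rescue against WT, with 26.1% of all genes higher and 49.2% called, 6 of the 11 were higher and 2 lower (median 0.32), among them Epas1 (1.28 ± 0.12), Egln3 (1.94 ± 0.10) and Arnt (0.40 ± 0.07), while Egln1 (-0.11) and Vhl (-0.07) did not pass the test. Levels of RNA do not show the HIF proteins, which are controlled after translation.

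Genes that lead pyruvate into mitochondria moved both ways in PKP4-KO, with 5 of 11 tested genes higher and 4 lower (median 0.13), against 33.4% higher and 70% called over all genes. Pdhb, a subunit of pyruvate dehydrogenase, was higher by 1.24 ± 0.06 and the pyruvate carrier Mpc1 by 0.95 ± 0.07, while the kinase Pdk2 and the phosphatase Pdp1 of the same complex stood at -1.55 ± 0.39 and -1.49 ± 0.17. In Rescue 3 were higher and 6 lower (median -0.42), against 26.1% higher and 49.2% called, with Mpc1 at -0.71 ± 0.07. In the pentose phosphate pathway 2 of 7 genes were higher and 2 lower (median -0.05), against 33.4% higher and 70% called over all genes. G6pdx, glucose 6-phosphate dehydrogenase at its entry, stood at -1.15 ± 0.07 and Pgd at -0.25 ± 0.06, and Rpia and Tkt of the branch without oxidation were higher by 0.80 ± 0.09 and 0.71 ± 0.06. In Rescue 4 were higher and 1, G6pdx with -0.61, lower (median 0.35), against 49.2% called.

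**Figure D4:**
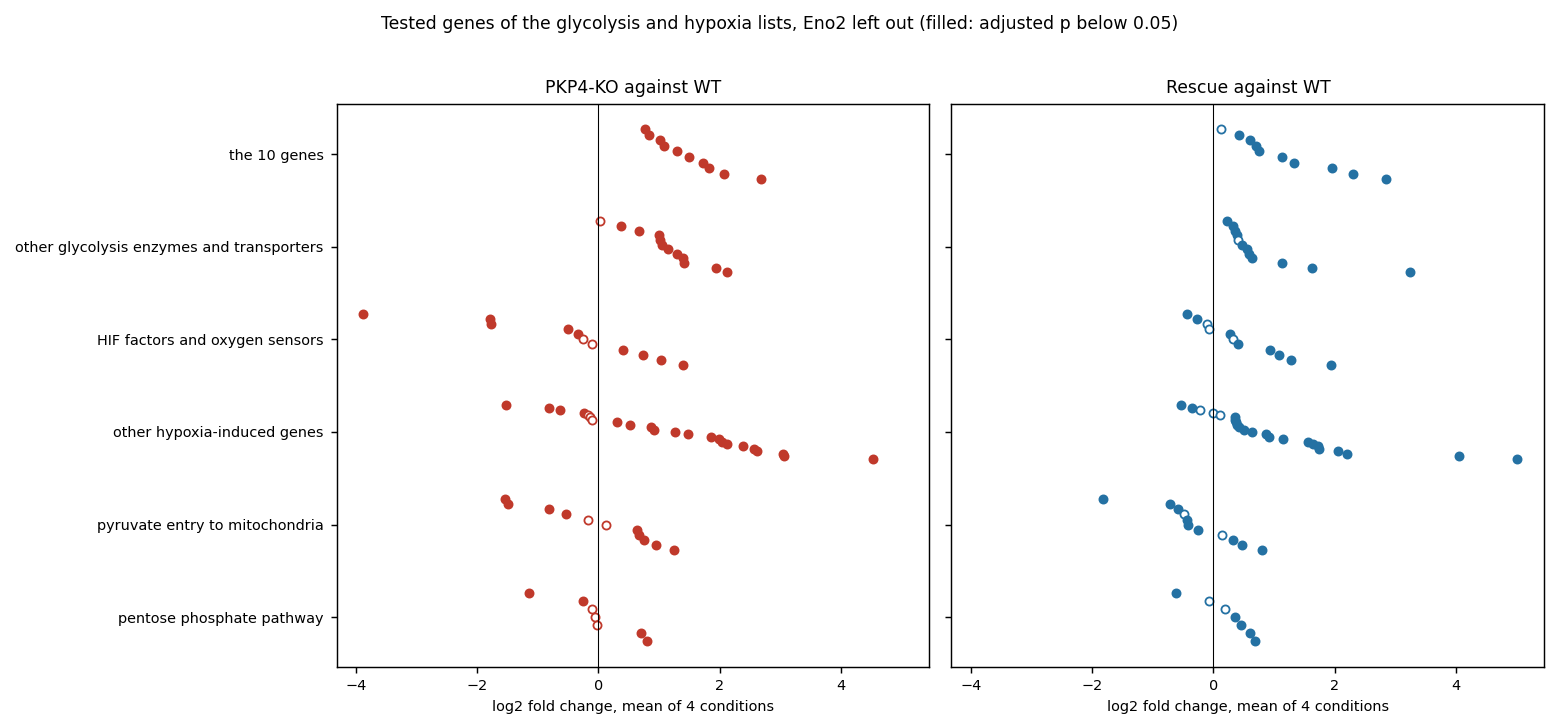
Log2 fold changes (mean of 4 conditions) of the tested genes of each list for PKP4-KO and Rescue cells, each against WT, with 1 point per gene, filled for an adjusted p below 0.05. Eno2 is left out because its estimate carries no information. The 10 genes and the other glycolysis genes lie at or right of 0 in both panels, whereas the other lists spread to both sides.

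The 12 group means of each gene were also compared with those of all tested protein-coding genes, each centred on its own mean, after adding 0.5 to each CPM, as a description without a test. Likeness is the mean absolute difference on the log2 scale over the 12 groups. Nearest to Ldha were Tpi1 with 0.12 and Jmjd6 with 0.14, nearest to Aldoa were Gpi1, glucose phosphate isomerase of the same pathway, with 0.19 and Gstm6 with 0.23, and nearest to Pfkp were Sap30 with 0.22 and Ldha itself with 0.34. Slc2a1 was nearest to Spi1 (0.14) and Kdm4b (0.16), Pgk1 to Ppme1 (0.16) and Vapb (0.18), and Pkm to Faap20 (0.14) and Gls2 (0.15). Hk2 with Amz1 and Acy3 (0.33 each), Vegfa with Psme1 (0.29) and Ttc38 (0.34) and Bnip3 with Tuba8 (0.65) and Ankrd37 (0.69) had more distant neighbours, and Car9 (Zbtb22, 0.11, and Frg2f1, 0.12) was compared near the floor of detection. Within the 10 genes, Ldha and Pkm were closest to each other (0.21), Hk2 and Vegfa were closest to each other at 0.50, and Bnip3 was at least 1.21 from every other.

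Close copies of the genes took few reads, at most 4.4% of the Pgk1 counts on the processed pseudogene Pgk1.rs7 and at most 0.13% of those of Ldha on a pseudogene, and Aldoart1, Aldoart2, Pgk2 and Ldhc had at most 12 counts in any library. How many reads of a copy came from the gene itself was not tested. The median log2 fold change of the tested genes within 2.5 Mb on each side in PKP4-KO against WT was 0.64 around Slc2a1, whose own value was 0.83, and 0.51 around Vegfa with an own value of 1.72. It lay between 0.05 and 0.38 around Hk2, Pfkp, Aldoa, Ldha, Pkm, Car9 and Bnip3, and at -0.83 around Pgk1 with an own value of 1.01.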

How the data were processed

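RNA of 36 libraries of mouse keratinocytes was sequenced after poly(A) selection with strand-specific libraries. The authors deposited raw read counts per gene, made with HISAT2 2.1.0, SAMtools 1.10 and featureCounts 2.0.0 on the mm39 genome with the GFP-PKP4 sequence added and the Ensembl GRCm39 annotation. Whether counting used strand is not given in the sources used here. Groups came from the labels. In R 4.3.3, edgeR 4.0.16 was run on the counts as deposited, with filterByExpr over the 12 groups, TMM factors and a quasi-likelihood fit with 1 mean per group (24 residual degrees of freedom), and p-values were adjusted by Benjamini-Hochberg over 15114 genes with a threshold of 0.05. All adjusted p-values in the text come from this fit unless another tool, another setting or a library left out is named. The 35 comparisons were PKP4-KO, Rescue and WT against each other per condition and as the mean of 4 conditions, HCM against LCM, 72 h against 24 h, and the differences of these between cells. Standard errors (SE) are the log2 fold change over the root of its F statistic, and 95% intervals use them. CPM are TMM-scaled, and CPM per kilobase use the length column of the deposited table.

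The genes, the pathway lists and the tests were chosen with earlier results of these data known. The text names the 10 genes, Hif1a, Epas1, Arnt, Vhl, Egln1, Egln3, Gapdh, Eno1, Slc16a3 and Pdk1, up to 4 called genes per list with the largest change in PKP4-KO against WT, the 2 genes nearest to each of the 10, and close copies. The alternatives were library sizes without TMM factors, no filter, at least 10 counts in every library, DESeq2 1.42.0, a fit of only the groups compared, a replicate block, leaving out each library, and means without 72 h HCM. The fit was tested on simulated data. Total counts per library lay between 13602728 and 22467187, and the libraries of a group differed by more than counting noise (chi-square per gene 7.13 to 272 over 36 pairs). Car9 had at most 19 counts in a library, so that differences within the error of such counts were not detectable at this depth. Promoter windows and their motifs were read from GRCm39 with the GENCODE annotation.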

Additional observations from a re-analysis of the deposited data

Results flagged for a closer look

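For several genes the effect of the genotype differed between times or media, tested in edgeR as a difference of 2 differences on the log2 scale. No cause was tested. The excess of PKP4-KO over WT was larger at 72 h than at 24 h in LCM for Bnip3 by 2.81 ± 0.35 (SE), Hk2 by 1.38 ± 0.19, Slc2a1 by 1.07 ± 0.19, Ldha by 1.04 ± 0.18, Aldoa by 0.98 ± 0.24, Pgk1 by 0.77 ± 0.20 and Pfkp by 0.76 ± 0.22. Leaving out 1 library lost the call of Pfkp in 8 cases and that of Pgk1 in 5. In HCM the excess was larger for Hk2 by 1.62 ± 0.19, Bnip3 by 1.39 ± 0.34, Aldoa by 0.89 ± 0.24, Ldha by 0.78 ± 0.18 and Pgk1 by 0.53 ± 0.20, of which only Hk2 remained called when TMM factors were left out, while 2 of the 10 genes were then called smaller. The HCM call of Pgk1 was lost in 10 cases of leaving out 1 library. The excess of Rescue over WT was larger at 72 h for Bnip3 by 2.54 ± 0.35 and Hk2 by 1.15 ± 0.19 in LCM, and for Bnip3 by 3.02 ± 0.35, Pfkp by 1.02 ± 0.22, Slc2a1 by 0.99 ± 0.19, Pgk1 by 0.91 ± 0.20 and Ldha by 0.75 ± 0.18 in HCM.

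The change from LCM to HCM at 72 h differed between PKP4-KO and WT for Vegfa (-1.41 ± 0.41, adjusted p = 0.0358) and Bnip3 (-1.27 ± 0.33, adjusted p = 0.0183). Leaving out 1 library lost the call of Vegfa in 8 cases and that of Bnip3 in 4. Between Rescue and WT the change with calcium differed for Bnip3 (1.12 ± 0.33), Pfkp (1.06 ± 0.22), Hk2 (-0.93 ± 0.19), Pgk1 (0.83 ± 0.20) and Slc2a1 (0.78 ± 0.19), with adjusted p from 0.00114 for Hk2 to 0.0223 for Bnip3. This call of Bnip3 was lost in 3 cases of leaving out 1 library.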

How the results depend on the processing

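The counts of the 10 genes called higher in PKP4-KO against WT and in Rescue against WT stayed within 1.5 times of those reported under every alternative. Without TMM factors other counts moved, and 72 h against 24 h gave 4 genes in PKP4-KO HCM, 3 in Rescue LCM, 2 in WT HCM and 1 in WT LCM, while HCM against LCM gave 9 in PKP4-KO and 2 in WT at 72 h and 2 in WT and 1 in Rescue at 24 h. Rescue against PKP4-KO at 72 h HCM then gave 9, and the PKP4-KO minus WT differences gave 3 for time in HCM (1 larger and 2 smaller) and 1 and 5 for medium at 24 h and 72 h. With no filter on low counts, 72 h against 24 h in Rescue LCM gave 3 and HCM against LCM in Rescue at 24 h gave 0. A fit of only the groups compared gave 2 in the first of these and 3 for HCM against LCM in PKP4-KO at 72 h, and DESeq2 gave 2 for HCM against LCM in PKP4-KO at 24 h. Leaving out 1 library gave 3 to 5 for 72 h against 24 h in Rescue LCM (3 without Rescue 24 h LCM replicate 1 or 2), and for HCM against LCM 3 to 5 in PKP4-KO at 72 h, 0 to 3 in Rescue at 24 h, 2 to 4 in WT at 72 h and 0 to 2 for the PKP4-KO minus WT difference at 72 h (0 without PKP4-KO HCM replicate 3 or WT HCM replicate 1 or 2).

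Directions of single genes turned without TMM factors as follows, and the shift of the median of all genes is given with the report. Rescue against PKP4-KO at 72 h HCM turned to 0.63 for Aldoa, 1.14 for Hk2, 0.62 for Ldha, 0.79 for Pgk1 and 0.99 for Pkm, and the mean of 4 conditions to 0.08 for Aldoa and 0.20 for Slc2a1. From 24 h to 72 h in PKP4-KO HCM, Slc2a1 turned to -0.39, Pfkp to -0.24, Pgk1 to -0.26, Ldha to -0.13, Pkm to -0.75 and Vegfa to -0.13, and the PKP4-KO minus WT difference in that time to -0.04 for Ldha and -0.31 for Pgk1. Slc2a1 in PKP4-KO against WT at 24 h LCM turned to -0.02 and Pgk1 in Rescue against WT at 24 h HCM to 0.01. Other turns were of values near 0, namely Pfkp in Rescue against PKP4-KO at 72 h HCM (-0.03 with at least 10 counts in every library, -0.12 with DESeq2 and -0.08 with only the groups compared), Slc2a1 there (-0.03 with DESeq2), Aldoa between PKP4-KO and WT at 24 h HCM (-0.01 with only the groups compared) and Pgk1 in Rescue against WT (0.00 at 72 h LCM with at least 10 counts, and -0.10 for the mean without 72 h HCM). Leaving out 1 library gave ranges across 0 for Aldoa between PKP4-KO and WT at 24 h HCM (-0.05 to 0.08) and Rescue against PKP4-KO at 24 h LCM (-0.24 to 0.01), Hk2 (-0.07 to 0.05) and Pfkp (-0.08 to 0.15) in Rescue against PKP4-KO at 72 h HCM and Pgk1 in Rescue against WT at 72 h LCM (-0.10 to 0.08).

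The replicate numbers did not pair the libraries as a whole, since 8 of 36 libraries correlated best with their own number. Every same-number correlation was over 0.1 in 3 of 24 comparisons of 2 groups, which were Rescue against PKP4-KO at 72 h LCM and at 24 h HCM and HCM against LCM in WT at 24 h. A fit with the replicate block changed 4 counts by 1 gene each, to 7 from 8 between PKP4-KO and WT at 24 h HCM (Hk2, adjusted p = 0.0506), to 8 from 9 in Rescue against PKP4-KO at 72 h LCM (Vegfa), and to 4 from 5 for HCM against LCM in PKP4-KO at 72 h and for the PKP4-KO minus WT difference of time in HCM. Low counts limit Car9.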

Other observations

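Gapdh and Hif1a spread widely between libraries of the same group. Gapdh stood at 606, 49 and 117 CPM in PKP4-KO at 24 h LCM, at 199, 998 and 165 CPM in PKP4-KO at 72 h LCM, at 44.8, 683 and 57.2 CPM in Rescue at 72 h LCM and at 27.6, 212 and 32 CPM in WT at 24 h HCM. Hif1a stood at 77.1, 89.3 and 23.3 CPM in WT at 72 h HCM, at 140, 119 and 46 CPM in Rescue at 24 h LCM and at 130, 33 and 95.3 CPM in Rescue at 72 h LCM, whereas it stood at 32.1, 29.1 and 26.1 CPM in PKP4-KO at 72 h HCM. Whether near-identical copies of Gapdh share its reads was not tested, and its values are uncertain.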
